A study of Homo sapiens with 8 samples.

Results

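The 34 genes described here encode enzymes of glycolysis and the pentose phosphate pathway, regulators of glycolytic flux, oxygen sensors and classical hypoxia targets. They were taken by symbol from the 2 deposited result tables, where all 34 were listed among 16726 genes, and the rule that picked them used no measured value. Poly(A) RNA was sequenced from NB4 and MM6, established human acute myeloid leukaemia lines, in 8 libraries. NB4 is known as a promyelocytic line and MM6 (MonoMac 6) as a monocytic line, but acute monocytic leukemia is the tumor given for both in the labels. The 4 groups held 2 libraries each: NB4 shNS, NB4 shM14, MM6 shNS and MM6 shM14. All cells carried a lentiviral pLKO.1 hairpin and had been kept in puromycin at 0.5 µg/mL for 2 passages. The hairpin was either the METTL14 hairpin (labelled shM14-#2) or the non-specific control shNS. METTL14 belongs with METTL3 to the methyltransferase that places N6-methyladenosine on RNA, and the design asks which transcripts change when it is lowered. A single METTL14 hairpin was used, so effects of lower METTL14 and of that hairpin alone cannot be told apart. No group was kept in low oxygen as far as the labels say.

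Glycolysis splits glucose into pyruvate, which lactate dehydrogenase can reduce to lactate, and the pentose phosphate pathway branches from it to make NADPH and ribose. When oxygen falls, prolyl hydroxylases such as EGLN1 no longer mark HIF1A for destruction, and the stabilised factor pairs with ARNT to activate many glycolytic genes together with BNIP3, VEGFA and ADM. Leukaemia cells are known for high glycolysis even with oxygen present.

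METTL14 itself checked the labels. It was at 14.1 and 12.5 RPKM (reads per kilobase of gene model, scaled to library depth) in NB4 shNS and at 8.35 and 8.35 in NB4 shM14. In MM6 it was at 12.5 and 13.4 RPKM in shNS and at 6.54 and 6.55 in shM14. The changes were -0.61 (adjusted p = 0.0024, limma) in NB4 and -0.88 (adjusted p = 0.088, limma) in MM6 on the log2(RPKM + 1) scale, so residual METTL14 RNA was present in all knockdown libraries.

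Depth was 23272126 to 28814911 reads per library, recovered from the deposited values. The 2 libraries of a group lay far closer in NB4 than in MM6. Over all genes tested, the SD of the log2 difference between replicates was 0.15 in NB4 shNS and 0.13 in NB4 shM14, against 0.35 in MM6 shNS and 0.38 in MM6 shM14. Whether the replicates came from separate cultures is not stated, so the p-values cover the spread between libraries, which may be technical. Of the defining granule markers, MPO was at 2117 to 2490 RPKM in NB4, while ELANE, also a promyelocyte protease, was at 0.05 and 0.04 RPKM in the NB4 libraries numbered 1 and at 6.83 and 6.45 in those numbered 2. S100A8 and S100A9, abundant in MM6, were at 0.33 and 0.67 RPKM in NB4 shNS replicate 1 and at 1.46 and 2.16 in replicate 2. LYZ and AZU1, also abundant in MM6, were at 19.8 and 79.7 RPKM in NB4 shNS replicate 1 and at 21.4 and 80.6 in replicate 2. VCAN, at 121 and 115 RPKM in MM6 shNS, was at 0.01 and 0.04 in NB4 shNS. Whether RNA or reads of MM6 libraries entered the NB4 libraries numbered 2 was not tested. In MM6, ELANE was at 1599 to 2410 RPKM and the monocyte gene LYZ at 5836 to 14301, so granule and monocyte markers were both present there.

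Promoters are shown for 7 of the genes called in NB4, all of which hold a match: BNIP3, ADM, ALDOC, PGK1 and ENO2, which were lower in NB4 shM14, and LDHA and PGD, which were higher. Each line holds the 250 bases before the RefSeq start site on GRCh38.p14, read 5′ to 3′ on the gene's strand. Capitals mark ACGTG or GCGTG on either strand, the core that HIF is known to bind. On the opposite strand these letters read CACGT and CACGC, and neighbouring matches can overlap.
BNIP3: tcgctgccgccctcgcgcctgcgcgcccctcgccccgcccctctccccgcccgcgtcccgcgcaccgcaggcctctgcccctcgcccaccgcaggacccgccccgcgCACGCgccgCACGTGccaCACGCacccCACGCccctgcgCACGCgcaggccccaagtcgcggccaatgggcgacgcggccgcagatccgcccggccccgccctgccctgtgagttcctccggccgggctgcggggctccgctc
ADM: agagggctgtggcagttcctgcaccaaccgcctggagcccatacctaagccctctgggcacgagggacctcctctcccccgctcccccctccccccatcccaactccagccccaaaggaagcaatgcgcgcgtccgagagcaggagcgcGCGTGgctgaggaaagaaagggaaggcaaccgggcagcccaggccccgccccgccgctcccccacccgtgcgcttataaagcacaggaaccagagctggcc
ALDOC: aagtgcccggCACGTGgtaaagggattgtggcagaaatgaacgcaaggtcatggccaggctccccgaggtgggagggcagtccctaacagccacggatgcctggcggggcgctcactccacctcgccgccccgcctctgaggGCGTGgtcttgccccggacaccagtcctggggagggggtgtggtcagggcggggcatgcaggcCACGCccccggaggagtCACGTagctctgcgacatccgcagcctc
PGK1: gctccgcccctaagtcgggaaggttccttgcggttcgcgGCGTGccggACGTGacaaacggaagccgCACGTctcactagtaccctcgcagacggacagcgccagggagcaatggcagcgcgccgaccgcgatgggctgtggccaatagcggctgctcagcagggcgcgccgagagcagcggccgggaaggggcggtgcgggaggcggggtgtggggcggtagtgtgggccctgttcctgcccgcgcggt
ENO2: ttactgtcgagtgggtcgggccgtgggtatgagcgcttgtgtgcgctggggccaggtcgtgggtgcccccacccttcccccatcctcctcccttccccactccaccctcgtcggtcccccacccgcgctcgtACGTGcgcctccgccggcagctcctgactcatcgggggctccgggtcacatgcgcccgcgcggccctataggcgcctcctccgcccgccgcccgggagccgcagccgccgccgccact
LDHA: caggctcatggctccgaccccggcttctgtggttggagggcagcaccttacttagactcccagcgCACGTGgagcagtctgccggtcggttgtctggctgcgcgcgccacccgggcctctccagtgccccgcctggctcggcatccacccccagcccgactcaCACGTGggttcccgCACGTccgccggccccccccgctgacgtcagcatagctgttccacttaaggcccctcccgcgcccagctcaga
PGD: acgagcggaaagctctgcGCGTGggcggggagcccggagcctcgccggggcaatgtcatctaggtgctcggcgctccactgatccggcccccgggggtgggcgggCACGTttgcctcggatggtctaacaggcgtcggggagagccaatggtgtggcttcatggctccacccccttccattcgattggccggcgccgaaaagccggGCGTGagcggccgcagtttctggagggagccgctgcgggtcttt

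These windows lay at chr10:131981924-131982173 on the minus strand (BNIP3), chr11:10304823-10305072 on the plus strand (ADM) and chr17:28576896-28577145 on the minus strand (ALDOC). The others, all on the plus strand, lay at chrX:78103998-78104247 (PGK1), chr12:6914330-6914579 (ENO2), chr11:18394313-18394562 (LDHA) and chr1:10398814-10399063 (PGD). BNIP3 held 6 matches, ALDOC 5 and LDHA 5, against 3 in PGK1, 3 in PGD, 1 in ENO2 and 1 in ADM. CACGTG was counted on each strand, as overlapping matches. LDHA, which rose in NB4, and ALDOC, which fell, held 5 matches each but differed in the number of separate marked stretches. The RefSeq table held 31 of the 34 genes, and BNIP3L, NDRG1 and VEGFA were not in it. A match stood in 19 of these 31 windows (61.3%), against 58.8% of the 9126 windows of genes tested in NB4 and 43.1% of all 27305 windows. The 31 windows held ACGTG more often than those of genes tested in NB4 (41.9% against 24.3%) and GCGTG less often (35.5% against 46.7%). A match of either kind stood in 9 of the 11 windows of genes lower in NB4 shM14, with none in HK1 and PDK1. It stood in 4 of the 6 windows of genes higher there, with none in PGAM1 and TALDO1. The median GC content was 70.0% in the 31 windows and 64.8% in those of the genes tested in NB4. A match is a description of the letters and not a binding site.

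In control cells the lines already differed, with most of the glycolytic and hypoxia genes higher in NB4. Of 32 genes tested between MM6 shNS and NB4 shNS, 18 were lower in MM6, where 36.8% of all genes tested were called lower, and 9 were higher, where 34.3% of all genes were. The median difference was -0.86 on the log2(RPKM + 1) scale, against -0.03 over all genes tested. Each line is 1 cell line, so these values describe 2 lines and no leukaemia type. In bulk RNA, fewer cells expressing a gene and less RNA per cell cannot be told apart.

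Genes known to respond to hypoxia showed wide gaps between the control lines. BNIP3, a mitochondrial receptor for mitophagy, was at 164 and 163 RPKM in NB4 shNS and at 12.7 and 14.6 in MM6 shNS, a log2 difference of -3.49 ± 0.10 (SE; adjusted p = 2.4e-05, limma). PDK1, a pyruvate dehydrogenase kinase, was at 15.8 and 16.5 RPKM in NB4 shNS and at 1.94 and 1.56 in MM6 shNS (-2.65, adjusted p = 4.8e-05, limma). VEGFA, the angiogenic growth factor, was at 26.97 and 26.4 against 6.90 and 7.49 RPKM (-1.76, adjusted p = 8.8e-05). No MM6 control library reached an NB4 control library for these 3 genes. ADM, which encodes the vasodilator peptide adrenomedullin (-2.05), BNIP3L (-1.74) and P4HA1, a collagen prolyl hydroxylase (-1.44), differed the same way. NDRG1, a stress-response gene, went the other way, at 67.1 and 46.3 RPKM in MM6 shNS against 24.9 and 25.7 in NB4 shNS (1.11, adjusted p = 0.0040, limma). EGLN1, the main oxygen-sensing hydroxylase, was also higher in MM6 (1.26), and the related EGLN3 had no read in any NB4 library and 8 to 19 reads in MM6 libraries. HIF1A itself was at 16.7 and 15.9 RPKM in NB4 shNS and at 15.97 and 15.5 in MM6 shNS, and did not pass the test (-0.05, adjusted p = 0.66, limma).

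Among the 17 glycolytic enzymes, 11 were lower and 4 higher in MM6 shNS than in NB4 shNS. PGK1, which makes ATP in lower glycolysis, was at 734 and 732 RPKM in NB4 and at 147 and 169 in MM6 (-2.21, adjusted p = 7.2e-05, limma). The aldolase ALDOC (-2.16) and the enolase ENO2 (-2.34), known as forms of brain and nerve, were also lower in MM6. PFKM, the muscle form of phosphofructokinase, was higher in MM6, at 29.9 and 27.7 RPKM against 5.39 and 5.63 in NB4 (2.19, adjusted p = 5.4e-05). The pyruvate kinase PKM (0.99), the hexokinase HK1 (0.91) and the isomerase GPI (0.91) were higher in MM6 as well. PFKL, the liver form of phosphofructokinase (0.18), and ENO1, the common enolase (0.03), did not pass the test. The summed RPKM of the 17 enzymes was 7004 ± 158 (SD, n = 2) in NB4 shNS and 3987 ± 244 (SD, n = 2) in MM6 shNS. In the pentose phosphate pathway TKT (0.61) and PGD (0.30, adjusted p = 0.045, limma) were higher in MM6 and TALDO1 (-0.21) did not pass. The PGD call was lost on leaving out either NB4 control or MM6 shNS replicate 2 and with a pseudocount of 0.1.

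**Figure D1:**
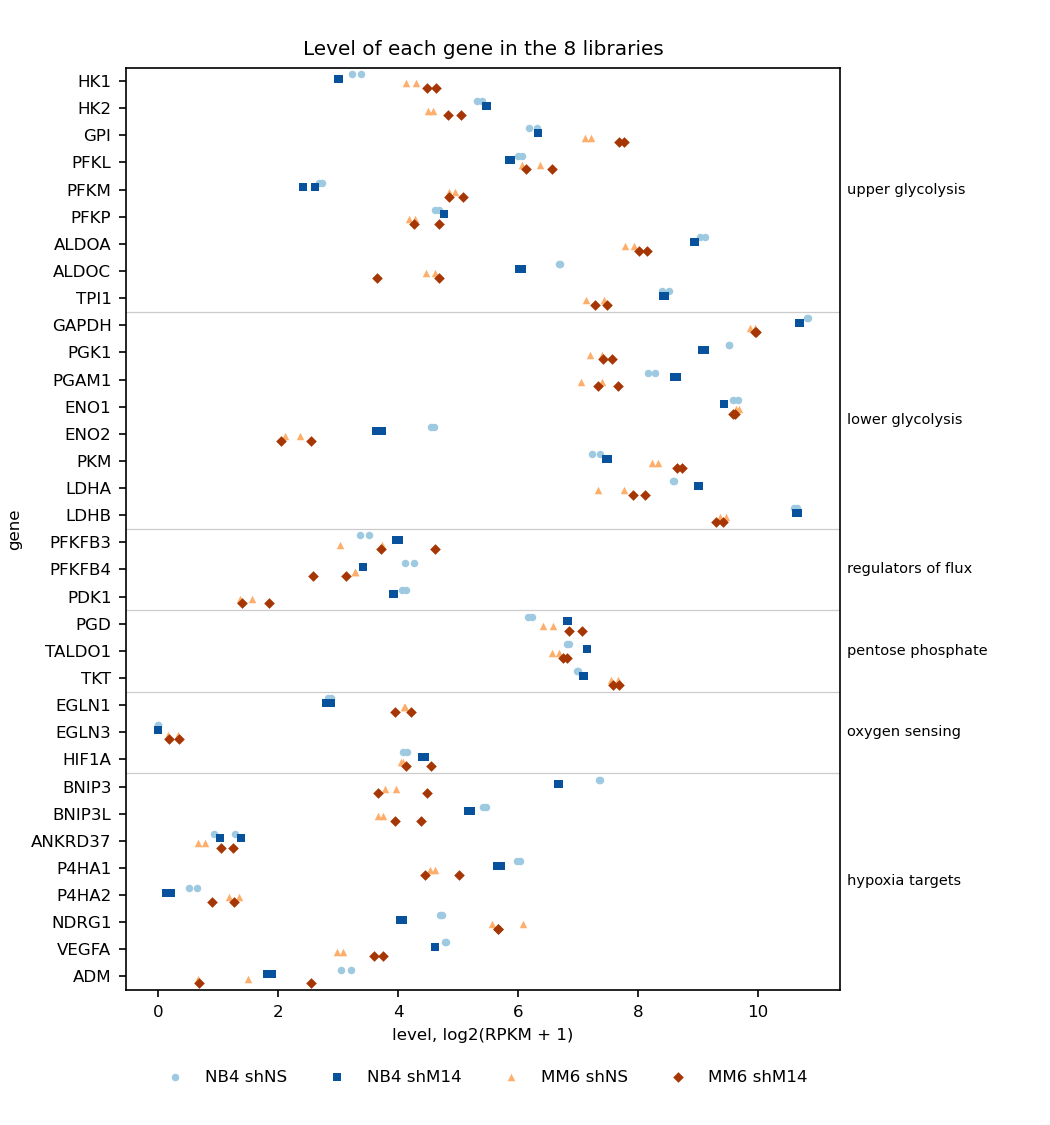
Level of each of the 34 genes in each of the 8 libraries, as log2(RPKM + 1) on the horizontal axis, with genes on the vertical axis ordered by role and groups shown by colour and shape. The NB4 and MM6 points lie widest apart for BNIP3, and the EGLN3 points of NB4 lie at 0.

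The order of levels was led by GAPDH in all 4 groups. In NB4 shNS GAPDH was at 1808 and 1825 RPKM and LDHB at 1553 and 1609, followed by ENO1 and PGK1. In MM6 shNS GAPDH was followed by ENO1 and LDHB, and PKM took the fourth place. EGLN3 had the lowest mean in all 4 groups, and EGLN3, ANKRD37 and P4HA2 were under 2 RPKM in every library. GAPDH and BNIP3 have 62 and 39 pseudogenes named after them in the GENCODE annotation, and PGAM1 has 13, so reads of these genes may have been split or lost in counting and their levels are less certain.

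With the METTL14 hairpin in NB4, 6 of 7 hypoxia targets tested fell, while 2 of 3 pentose phosphate enzymes, LDHA and PFKFB3 rose. Of the 34 genes, 32 passed the filter on low values in NB4. Of these, 14 fell, where 25.2% of all 11531 genes tested were called lower, and 6 rose, where 22.1% were called higher. The share lower among the 32 genes was thus 43.8% and the share higher 18.8%. The median change was -0.13, against -0.01 over all genes tested. The authors' deposited table had 17 of the genes lower and 10 higher at an adjusted p under 0.05, the 20 called here among them, where 43.6% of all genes in it were under 0.05. Without shM14 replicate 1, 8 genes fell, where 15.5% of all genes were called lower, and without shM14 replicate 2, 9 fell, where 16.8% were. In a model of all 8 libraries, which uses 1 spread for both lines, PGK1, ENO2, PFKFB4 and NDRG1 fell, where 8.77% of all genes did, and PGD and TALDO1 rose, where 6.57% did. Other lists also moved in these libraries. The summed level of 12 monocyte markers went from 44.7 and 48.4 RPKM to 136 and 140, with 6 of 8 tested higher, CD14 at 0.11 in both controls and at 0.98 and 0.70 with shM14, and FCN1 not passing the test. The summed level of 11 interferon response genes went from 972 and 998 RPKM to 334 and 328, with 11 of 11 lower. Their part in the changes of the glycolysis and hypoxia genes was not tested.

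Among the 7 hypoxia targets tested in NB4, 6 fell and none rose, where 25.2% of all genes tested were called lower and 22.1% higher. ADM (gene 133) was at 7.31 and 8.25 RPKM in shNS and at 2.49 and 2.74 in shM14, a change of -1.28 ± 0.07 (SE; adjusted p = 0.00052, limma). BNIP3 (gene 664) went from 164 and 163 RPKM to 101 and 101 (-0.69 ± 0.04, adjusted p = 0.00065). Both shM14 libraries lay below both controls for each of these genes, and the replicates lay close together. NDRG1 (gene 10397) was at 24.9 and 25.7 RPKM in shNS and at 15.8 and 15.3 in shM14 (-0.67, adjusted p = 0.00089, limma). P4HA1 fell from 64.9 and 62.3 to 51.9 and 49.2 RPKM (-0.33, adjusted p = 0.0074), and BNIP3L, the relative of BNIP3, from 43.0 and 41.6 to 36.1 and 35.0 (-0.24, adjusted p = 0.013). VEGFA (gene 7422) moved least of the 6, from 26.97 and 26.4 RPKM to 23.4 and 23.4 (-0.18 ± 0.04, adjusted p = 0.025, limma). Its call was lost without NB4 shNS replicate 1 or either shM14 library, and that of BNIP3L without either shM14 library. ANKRD37, a small nuclear protein gene, did not pass, at 1.42 and 0.89 RPKM in shNS and 1.61 and 1.04 in shM14. P4HA2 was below the filter, with 28 and 46 reads in shNS and 7 and 11 in shM14, and the authors' deposited table gave it a log2 fold change of -2.00.

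HIF1A, the oxygen-regulated subunit of the factor, rose in NB4, where 6 of the 7 genes tested from the list of hypoxia targets fell. LDHA (0.41) and PFKFB3 (0.55), which are not on that list, rose as well. HIF1A was at 16.7 and 15.9 RPKM in shNS and at 20.03 and 20.8 in shM14, with no overlap of the groups. The change was 0.31 ± 0.05 (SE; adjusted p = 0.0077, limma). These are RNA values, and HIF1A activity is known to be set mainly at the protein. EGLN1 was at 6.08 and 6.34 RPKM in shNS and at 5.91 and 6.38 in shM14, and the groups overlapped.

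In glycolysis the enzymes did not move one way in NB4. Of the 9 enzymes of upper glycolysis tested, 3 fell (33.3%) and none rose, where 25.2% of all genes tested were called lower and 22.1% higher. ALDOC (gene 230) was at 104 and 102 RPKM in shNS and at 66.0 and 63.9 in shM14 (-0.65 ± 0.05, adjusted p = 0.00086, limma), while the abundant aldolase ALDOA did not pass the test (-0.13). HK1 fell from 8.37 and 9.47 to 7.02 and 7.08 RPKM (-0.30, adjusted p = 0.019) and PFKL from 63.2 and 66.4 to 56.4 and 58.0 (-0.18, adjusted p = 0.038). The HK1 call was lost without either shM14 library, and the PFKL call also without NB4 shNS replicate 2, with a pseudocount of 0.1 and under median-of-ratios scaling. HK2 (0.13), GPI (0.07), PFKP (0.11), PFKM (-0.19) and TPI1 (-0.03) did not pass.

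Of the 8 enzymes of lower glycolysis, 3 fell (37.5%) and 2 rose (25%), where 25.2% of all genes tested were called lower and 22.1% higher. ENO2 (gene 2026) was at 23.4 and 22.5 RPKM in NB4 shNS and at 12.2 and 11.4 in shM14, a change of -0.90 ± 0.06 (SE; adjusted p = 0.00061, limma). PGK1 (gene 5230) fell from 734 and 732 RPKM to 555 and 534 (-0.43 ± 0.05, adjusted p = 0.0025). Both genes had each shM14 library below each control. ENO1, which makes up most enolase RNA here, fell less, from 767 and 815 to 693 and 691 RPKM (-0.19, adjusted p = 0.033, limma), and lost its call without either shM14 library, without NB4 shNS replicate 2 and under median-of-ratios scaling. LDHA (gene 3939), the lactate-forming subunit, rose from 391 and 383 to 517 and 515 RPKM (0.41 ± 0.04, adjusted p = 0.0023). The mutase PGAM1 rose from 287 and 313 to 400 and 387 RPKM (0.39 ± 0.06, adjusted p = 0.0066). For both, each shM14 library lay above each control. GAPDH (-0.12), PKM (0.18) and LDHB (0.03) did not pass. The summed RPKM of the 17 enzymes was 6738 ± 69.1 in NB4 shM14 (SD, n = 2), from 7004 ± 158 in shNS.

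**Figure D2:**
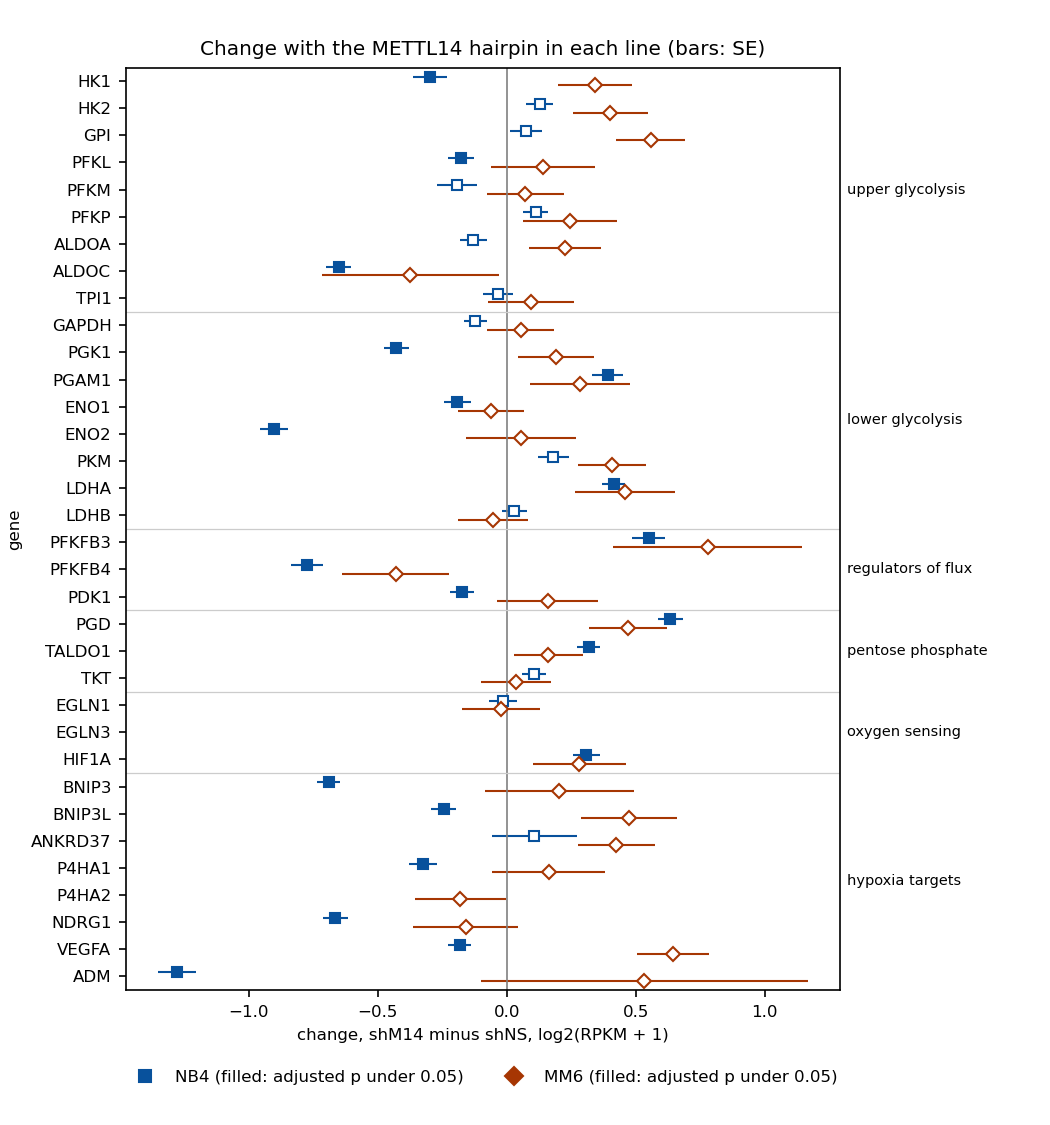
Change with the METTL14 hairpin (shM14 minus shNS, log2(RPKM + 1), horizontal axis) for each gene tested, by role, in NB4 (squares) and MM6 (diamonds), with standard errors as bars and filled symbols for an adjusted p under 0.05. NB4 has filled symbols on both sides of 0, from -1.28 for ADM to 0.63 for PGD, and MM6 has none.

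The flux regulators PFKFB3 and PFKFB4, which make the activator of phosphofructokinase, moved in opposite directions in NB4. PFKFB3 rose from 9.35 and 10.4 to 14.6 and 15.2 RPKM (0.55 ± 0.06, adjusted p = 0.0028, limma). PFKFB4 (gene 5210) fell from 16.3 and 18.1 to 9.61 and 9.65 RPKM (-0.77 ± 0.06, adjusted p = 0.0012). PFKFB4 thus made up 63.6% ± 0.039 of their summed RPKM in shNS and 39.3% ± 0.61 in shM14 (SD, n = 2). PDK1 was at 15.8 and 16.5 RPKM in shNS and at 14.2 and 14.3 in shM14 (-0.17, adjusted p = 0.034, limma). That call was lost without either shM14 library, without NB4 shNS replicate 2, with a replicate block and under median-of-ratios scaling.

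In the pentose phosphate pathway 2 of 3 genes rose in NB4 and none fell, where 22.1% of all genes tested were called higher and 25.2% lower. PGD (gene 5226), the phosphogluconate dehydrogenase that yields NADPH, was at 70.9 and 74.1 RPKM in shNS and at 112 and 114 in shM14, a change of 0.63 ± 0.05 (SE; adjusted p = 0.00099, limma). TALDO1, the transaldolase, rose from 112 and 114 to 141 and 141 RPKM (0.32 ± 0.04, adjusted p = 0.0049). Neither gene had overlapping groups. TKT, the transketolase, was at 125 and 127 RPKM in shNS and at 134 and 137 in shM14 and did not pass the test (0.10, adjusted p = 0.12, limma).

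The other genes of these pathways, from lists that leave out the 34, moved in both directions in NB4. Of 23 other genes of glycolysis and glucose entry tested, 7 rose (30.4%) and 8 fell (34.8%). Over all genes tested in NB4, 22.1% were called higher and 25.2% lower. The glucose transporters SLC2A6 (1.61) and SLC2A3 (0.97) and the lactate exporter SLC16A3 (0.60) rose, and PGM1, which links glycogen to glycolysis, fell (-0.65). SLC2A3 was at 30.7 and 31.0 RPKM in shNS and at 62.0 and 60.3 in shM14. Of 11 other pentose phosphate genes tested, 3 rose (27.3%) and 1 fell (9.09%). RPIA, the ribose phosphate isomerase (0.51), and DERA (0.22) were among those that rose, and PGM2 fell (-0.21). Of 27 other genes of the HIF pathway and its targets tested, 14 fell (51.9%) and 5 rose (18.5%). Among those that fell were the adenylate kinase AK4 (-1.16), ZNF395 (-1.07) and PPFIA4 (-1.04). Among those that rose was the haem oxygenase HMOX1 (0.98), which other stresses also induce. DDIT4, on the same list and more abundant, was at 71.0 and 75.5 RPKM in NB4 shNS and at 135 and 131 in shM14.

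**Figure D3:**
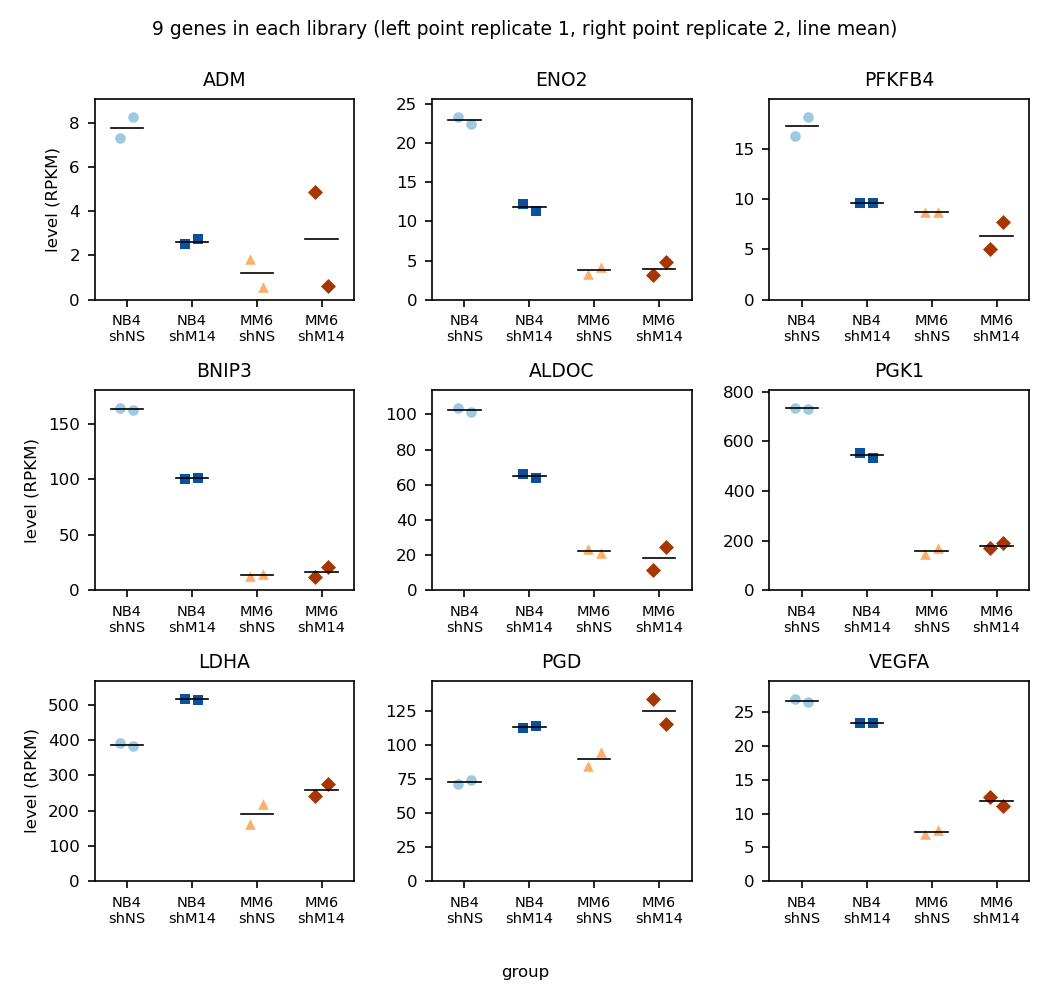
RPKM of 9 of the genes in each library, with the 4 groups on the horizontal axis, replicate 1 as the left point, replicate 2 as the right point and the group mean as a line. In NB4 the shM14 points of ADM, ENO2, PFKFB4, BNIP3, ALDOC, PGK1 and VEGFA lie below the controls and those of LDHA and PGD above, while the MM6 shM14 points of ADM lie apart at 4.85 and 0.59.

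In MM6 none of the 33 genes tested passed the threshold, where 0.0504% of all 11895 genes tested were called higher and 0.0252% lower by limma. At an unadjusted p under 0.05, 7 were higher and 0 lower, where 6.03% and 8.93% of all genes were. By limma voom on the recovered reads 0 were called as well, where 0.328% of all genes were called in either direction, and the authors' deposited table also had 0 at an adjusted p under 0.05, where 3.28% of all genes in it were. The median change of the 33 genes was 0.19, against -0.03 over all genes tested, and 26 values were positive and 7 negative. The 2 shM14 libraries lay above both controls for 14 genes, where 19.0% of all genes did so, and below both for 2 genes, where 25.8% did. Leaving out any of the 4 MM6 libraries gave no call either. In the model of all 8 libraries HK2, GPI, PKM, VEGFA and PGD passed as higher, where 4.49% of all genes did, so calls were more frequent throughout that fit. With a replicate block in the MM6 fit, GPI, PFKFB3 and VEGFA passed as higher, where 595 of 11895 genes did. Replicate differences of MM6 shNS and shM14 correlated at 0.70 across genes, but the labels state no pairing. The absence of calls in MM6 thus held in the fit of MM6 alone without a block, and not with the block or in the model of all 8 libraries.

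VEGFA had the smallest adjusted p of the 33 genes in MM6, 0.15 by limma. It was at 6.90 and 7.49 RPKM in shNS and at 12.5 and 11.1 in shM14, a change of 0.64 ± 0.14 (SE). The authors' deposited table gave it a log2 fold change of 0.76 with an adjusted p of 0.050. GPI was at 138 and 148 RPKM in shNS and at 204 and 218 in shM14 (0.56 ± 0.13, adjusted p = 0.17, limma). PGD was at 84.1 and 95.0 RPKM in shNS and at 134 and 115 in shM14 (0.47 ± 0.15, adjusted p = 0.25, limma). PKM was at 302 and 321 against 426 and 401 RPKM (0.41 ± 0.13, adjusted p = 0.25, limma). For each of these 4 genes both shM14 libraries lay above both controls. PFKFB4 was at 8.73 and 8.73 RPKM in shNS and at 4.98 and 7.72 in shM14 (-0.43 ± 0.21, adjusted p = 0.42, limma), and with ENO1 it was the pair whose shM14 libraries both lay below the controls. None of the 10 monocyte markers or the 11 interferon response genes tested in MM6 passed the threshold. All 10 monocyte values were positive, 8 of them at an unadjusted p under 0.05 by limma, where 6.03% of all genes were. All 11 interferon values were negative, 7 of them at an unadjusted p under 0.05, where 8.93% of all genes were. The summed RPKM of the monocyte list, most of it from LYZ, S100A8 and S100A9, was 15575 and 10249 in shNS and 26409 and 16329 in shM14, and that of the interferon list 493 and 1096 against 387 and 328. Their part in the values of the metabolic genes was not tested.

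Several hypoxia targets and their relatives differed between the 2 MM6 knockdown libraries. ADM was at 4.85 RPKM in replicate 1 and 0.59 in replicate 2 of MM6 shM14, with 220 and 22 reads, and at 1.82 and 0.58 in shNS. ALDOC was at 11.5 and 24.8 RPKM in shM14, on either side of the controls at 23.5 and 21.1. BNIP3 was at 11.6 and 21.5 RPKM in shM14 against 12.7 and 14.6 in shNS. So replicate 2 was higher than replicate 1 for ALDOC and BNIP3 and lower for ADM. P4HA1 (0.58), PFKFB4 (0.54) and ENO2 (0.51) were also higher in replicate 2 of shM14 by over 0.5 in log2(RPKM + 1), together with ALDOC (1.05) and BNIP3 (0.83). These were 5 of the 33 genes, where 838 of 11895 genes tested (7.05%) showed such a gap. PFKFB3 differed the other way in both MM6 groups, at 12.3 and 7.20 RPKM in shNS and at 23.5 and 12.2 in shM14.

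**Figure D4:**
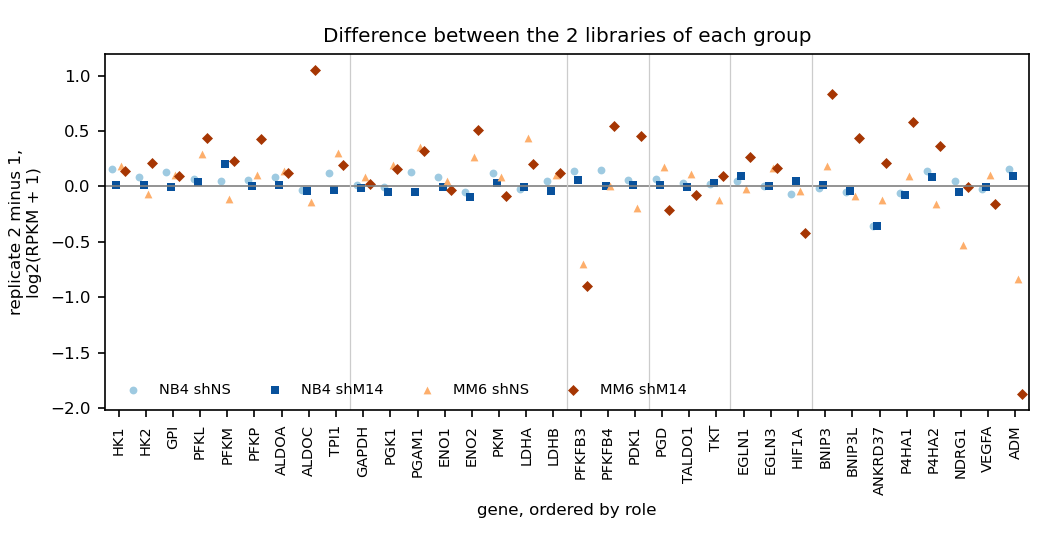
Difference between the 2 libraries of each group, replicate 2 minus replicate 1 in log2(RPKM + 1) on the vertical axis, for each gene ordered by role. The NB4 points lie between -0.36 and 0.20, and the MM6 shM14 points reach from -1.88 for ADM to 1.05 for ALDOC.

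Over both lines together 3 of 33 genes rose, where 4.80% of all 12804 genes tested were called higher, and 1 fell, where 7.10% were called lower. PGD changed by 0.55 ± 0.08 (SE; adjusted p = 0.0068, limma), LDHA by 0.44 ± 0.10 (adjusted p = 0.031), PKM by 0.29 ± 0.08 (adjusted p = 0.044) and PFKFB4 by -0.60 ± 0.13 (adjusted p = 0.024). In all 4 genes both lines had every shM14 library on the same side of its controls. The genes were called from the same libraries, so this is no separate support. PGD kept its call under every alternative run. Leaving out any of the 4 NB4 libraries, which also cut the calls over all genes, ended the calls of LDHA, PFKFB4 and PKM. LDHA also lost its call without MM6 shM14 replicate 2, and PFKFB4 without MM6 shM14 replicate 1. PKM also lost its call when any 1 of the 4 MM6 libraries was left out and with a pseudocount of 0.1. Among the other HIF pathway genes ARNT, the partner of HIF1A, fell over both lines (-0.70, adjusted p = 0.0047, limma). It was at 10.9 and 10.9 RPKM in NB4 shNS against 6.18 and 6.98 in shM14, and at 24.6 and 19.7 in MM6 shNS against 11.8 and 13.5.

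The change differed between the lines for 1 of the 33 genes, VEGFA, where 1.53% of all genes tested were called with a more positive change in MM6 than in NB4 and 1.39% with a more negative one. The difference of the change, MM6 minus NB4, was 0.83 ± 0.12 (SE; adjusted p = 0.027, limma), since VEGFA fell slightly in NB4 and lay higher in both MM6 shM14 libraries. The call was lost on leaving out any of the 4 NB4 libraries or MM6 shNS replicate 1. Calls over all genes were also far fewer without an NB4 library. The difference was positive for 26 of the 33 genes, where it was positive for 46.6% of all genes tested. Its median was 0.28, against -0.02 over all genes tested. It was positive for all 8 hypoxia targets and all 9 enzymes of upper glycolysis. ENO2 (0.96 ± 0.24, adjusted p = 0.094), HK1 (0.64 ± 0.15, adjusted p = 0.071) and PGK1 (0.62 ± 0.14, adjusted p = 0.070) did not pass by limma. For the 3 pentose phosphate genes the difference lay between -0.17 and -0.07. Without MM6 shM14 replicate 1, 6 genes passed, namely VEGFA, ALDOC, ENO2, BNIP3, BNIP3L and P4HA1, where 280 of all 12715 genes were called with a more positive change. Among the other genes of these pathways FAM162A (1.19), AK4 (1.03), WSB1 (0.84) and PGM1 (0.96) had a more positive change in MM6, and DDIT4 a more negative one (-0.91).

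**Figure D5:**
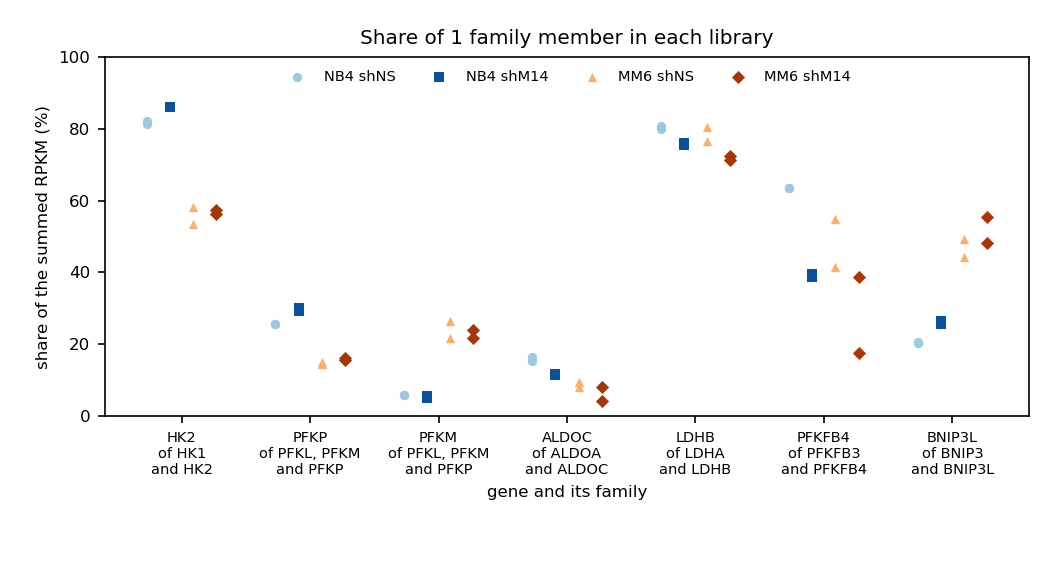
Share of the family's summed RPKM held by 1 family member (percent, vertical axis) in each library, for 7 pairs or trios of related genes on the horizontal axis. The PFKFB4 share is lower with shM14 in every library than in the controls of its line, and the NB4 and MM6 points of HK2, PFKM and BNIP3L lie far apart.

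Shares within families of related enzymes were compared as a description. LDHB held 79.9% and 80.8% of the summed LDHA and LDHB RPKM in NB4 shNS and 76.0% and 75.6% in shM14. In MM6 the LDHB share was 80.4% and 76.5% in shNS and 72.5% and 71.4% in shM14. The groups overlapped in neither line, and with 2 libraries a group a two-sided exact permutation test cannot go below 0.33. The HK2 share of the hexokinases was 82.2% and 81.3% in NB4 shNS and 86.1% and 86.1% in shM14. In MM6 it was 58.2% and 53.6% in shNS and 56.3% and 57.5% in shM14, and the groups overlapped. ENO2 held 2.82% ± 0.19 of the enolase RPKM in NB4 shNS and 1.68% ± 0.081 in shM14 (SD, n = 2), and ALDOC 15.96% ± 0.72 of the aldolase RPKM against 11.6% ± 0.29. The PFKFB4 share in MM6 was 41.5% and 54.8% in shNS and 17.5% and 38.8% in shM14, so the libraries of a group differed there by more than 10 percentage points.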

How the data were processed

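RNA sequencing values of 8 libraries (NB4 and MM6, shNS and shM14, 2 each) were taken from 2 deposited tables, 1 per line. Per the labels' protocols, poly(A) RNA from 100 ng of total RNA was made into libraries with a directional kit and read as single 50-base reads. The sources used here name no aligner, counter, genome build or strand setting, so near-identical, overlapping or antisense genes are less certain. RPKM values were deposited per library, and the unit was worked out from the values. The signal columns hold the authors' group means of size-factor scaled reads. The authors also deposited a ratio (the fold change of shM14 over shNS), its log2 and a p-value with its adjustment over 16726 genes, which recomputation matched. RPKM and group means resolved into whole reads for 100% of values (tolerance 0.01 reads), which gave the depth.

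Genes with at least 1 RPKM in at least 2 libraries of a fit were kept. log2(RPKM + 1) was fitted with limma 3.58.1 (R 4.3.3, empirical Bayes), with Benjamini-Hochberg adjustment over all genes tested and a threshold of 0.05. A change on this scale understates that of low genes. Each line was fitted alone, and the common change and the difference of changes came from all 8 libraries. Python 3.11.15 made summaries and figures. The fits and the read recovery were tested on simulated data. Alternatives changed the pseudocount (0.1) or the filter (none, or 5 RPKM), or used a replicate block, median-of-ratios scaling, voom on recovered reads, 1 model of all 8 libraries, and each library left out. The 34 genes and all lists were chosen with earlier results of these data known. By the naming rule all 34 genes are described, with up to 4 genes of smallest p from each list of other pathway genes. Of the genes that met this rule, 1 is not reported here.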

Additional observations from a re-analysis of the deposited data

Results flagged for a closer look

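VEGFA was singled out because its change differed between the lines: the change in MM6 minus that in NB4 was 0.83 on the log2(RPKM + 1) scale (adjusted p = 0.027, limma interaction over 8 libraries). Both NB4 shM14 libraries lay below their controls and both MM6 shM14 libraries above theirs. The groups of 2 libraries are too small for a check of single libraries against the rest of their group.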

How the results depend on the processing

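Settings moved the counts of called genes more than the directions. All 20 genes called in NB4 kept their sign under the 11 alternatives run, and 6 of them (PGK1, ENO2, PFKFB4, NDRG1, PGD and TALDO1) their call. In 1 model of all 8 libraries, which applies the wider MM6 spread to NB4, 2 genes rose and 4 fell in NB4, and 5 were higher in MM6. Leaving out a library gave 8 to 13 lower genes in NB4, with 8 without shM14 replicate 1 and 9 without shM14 replicate 2. In the common change the counts were lowest without an NB4 library and highest without MM6 shM14 replicate 2, and so were those over all genes. In the difference between lines no gene of the 33 kept or gained a call when any NB4 library was left out, and calls over all genes were far fewer there too. Leaving out either MM6 shM14 library gave more calls, among these genes and over all genes. Median-of-ratios scaling gave 6 higher genes in the common change, where 6.41% of all genes were called higher. It gave 3 with a more positive change in MM6, where 1.92% of all genes were. Voom gave 5 higher and 2 lower in the common change, where 6.58% and 10.2% of all genes were. It gave 2 with a more positive change in MM6, where 0.719% of all genes were. Between controls, PFKFB3 went from -0.05 to 0.30 without MM6 shNS replicate 2 and to -0.40 without MM6 shNS replicate 1. The causes were not tested. With the replicate block, 3 genes were higher in MM6 (GPI, PFKFB3 and VEGFA) and 6 had a more positive change in MM6, against 0 and 1 without it, while the number of all genes called so went to 595 of 11895 and 582 of 12804 from 6 and 196. The block gave 6 higher and 13 lower in NB4, where 21.1% and 24.4% of all genes were. It gave 4 and 1 in the common change (4.69% and 6.65% of all genes) and 8 and 18 between controls (33.4% and 35.9%). The block ended the calls of PDK1 in NB4, PKM in the common change, where PGAM1 and PFKFB3 were added, and PGD between controls. The labels state no pairing, and replicate differences of shNS and shM14 correlated at 0.08 in NB4 and 0.70 in MM6 across genes. Both lines had 2 residual degrees of freedom, and the replicate spread over all genes was 0.35 and 0.38 in MM6 against 0.15 and 0.13 in NB4.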

Other observations

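Some values belong to no comparison above. EGLN3 had 8 and 19 reads in MM6 shNS and 11 and 18 in MM6 shM14, and none in the 4 NB4 libraries, where 3 reads is the limit that a count of 0 allows, for counting error only. Of the genes on the lists of other pathway members, CA9, a carbonic anhydrase known as a hypoxia target, was named after its values were seen: it lay under 1 RPKM in all 8 libraries, at 0.41 and 0.60 in NB4 shNS and at 0.069 and 0.052 in NB4 shM14. HKDC1, TKTL1, EGLN2, PLOD2, MIF and STC1 were not analysed here.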
